A study of Arabidopsis thaliana with 12 samples.

Results

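The comparison described here is the interaction of genotype and abscisic acid (ABA) in Arabidopsis thaliana seedlings: for each gene, how the response to ABA in the nup1-1 mutant differed from the response in wild-type Col-0. Its members are the genes that the authors' 2 ABA tables both mark as tested and that reached at least 5 FPKM (fragments scaled by transcript length and library size) in the highest of the 4 group values. This gave 15748 of 33201 rows, of which 15708 could be tested and 40 held a group value of 0. A further 4342 rows tested in both tables lay under the floor. AT2G35345, with a highest value of 5.001 FPKM, was the last gene inside it, and BGLU1, with 4.999 FPKM, the first outside.

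Whole seedlings of 5 days were sequenced as mRNA in 12 samples, 3 in each of 4 groups: nup1-1 on MS medium with ABA, nup1-1 on MS medium alone, Col-0 on MS medium with ABA, and Col-0 on MS medium alone. The labels give neither the ABA dose nor the lesion carried by nup1-1, and they do not say if samples of a group were sown apart, so that the p-values may measure a technical spread. In the authors' deposited genotype tables NUP1 stood at 7.47 FPKM in nup1-1 and 13.8 FPKM in Col-0 on ABA (q = 2.72e-04), and at 9.23 FPKM in nup1-1 and 12.8 FPKM in Col-0 without ABA (q = 0.243), so its RNA was still counted in the mutant. A single mutant line was used, so an effect of NUP1 and another difference of that line cannot be told apart. The sources used here do not give the stage that seedlings on ABA had reached, and in whole seedlings fewer cells of a type and less RNA per cell cannot be told apart.

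ABA is the hormone that holds a seed dormant and stops a germinated embryo from growing on when water is short. It binds PYR/PYL receptors, which block PP2C phosphatases and so free SnRK2 kinases to phosphorylate bZIP factors such as ABI5, and these bind promoters at ABRE motifs. NUP1 is a protein of the basket on the inner face of the nuclear pore, the channel through which mRNA leaves and proteins enter the nucleus, and the title of the study links it to the breakdown of ABI5 by the proteasome.

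The response of a gene is given as log2((ABA + 1)/(untreated + 1)) of the authors' FPKM values, and the difference is the response in nup1-1 minus that in Col-0, so a positive difference means a response that is higher in nup1-1. Each difference was tested with a 2-sided Wald test on the log2 scale without the added 1, with standard errors reconstructed from the authors' deposited statistics. A gene was called where the Benjamini-Hochberg adjusted p, written q, was under 0.05 over the 19487 genes tested. Log2 differences printed with ± and a standard error are on the scale without the added 1; medians of lists are on the scale with it. FPKM values are the authors' deposited group values, 1 per group, with no error of their own. The 2 ABA tables were normalized separately, and the same group differed by up to 0.203 on the log2 scale between the authors' tables, so a level of nup1-1 set beside one of Col-0 carries a shift of that order.

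ABA changed more in nup1-1 than in Col-0. In the authors' deposited tables at q under 0.05, 46.6% of the tested genes were called for ABA in nup1-1 (21.2% raised and 25.3% lowered) and 15.6% in Col-0 (7.83% raised and 7.79% lowered). Between genotypes, 38.7% were called on ABA (15.4% higher and 23.3% lower in nup1-1) and 6.6% without it (2.68% higher and 3.92% lower). Among the members the SD across genes of the response was 1.12 in nup1-1 and 0.76 in Col-0. On the log2(FPKM + 1) scale 3054 members in nup1-1, against 1163 in Col-0, moved by at least 1 in either direction. The absolute response was larger in nup1-1 in 71.9% of the members. The 2 responses ran in the same general direction, with a Pearson r of 0.807 across genes, which are not independent replicates. The difference was centred near 0, with a median of 0.015 and a 5th to 95th percentile range of -1.27 to 0.83, and it was called for 2710 members, 17.3% of those tested. Of these, the response in nup1-1 was higher in 832 (5.3%) and lower in 1878 (12%). With a difference of at least 1 as a further condition, 1555 were called (9.9%), 377 higher (2.4%) and 1178 lower (7.5%).

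**Figure D1:**
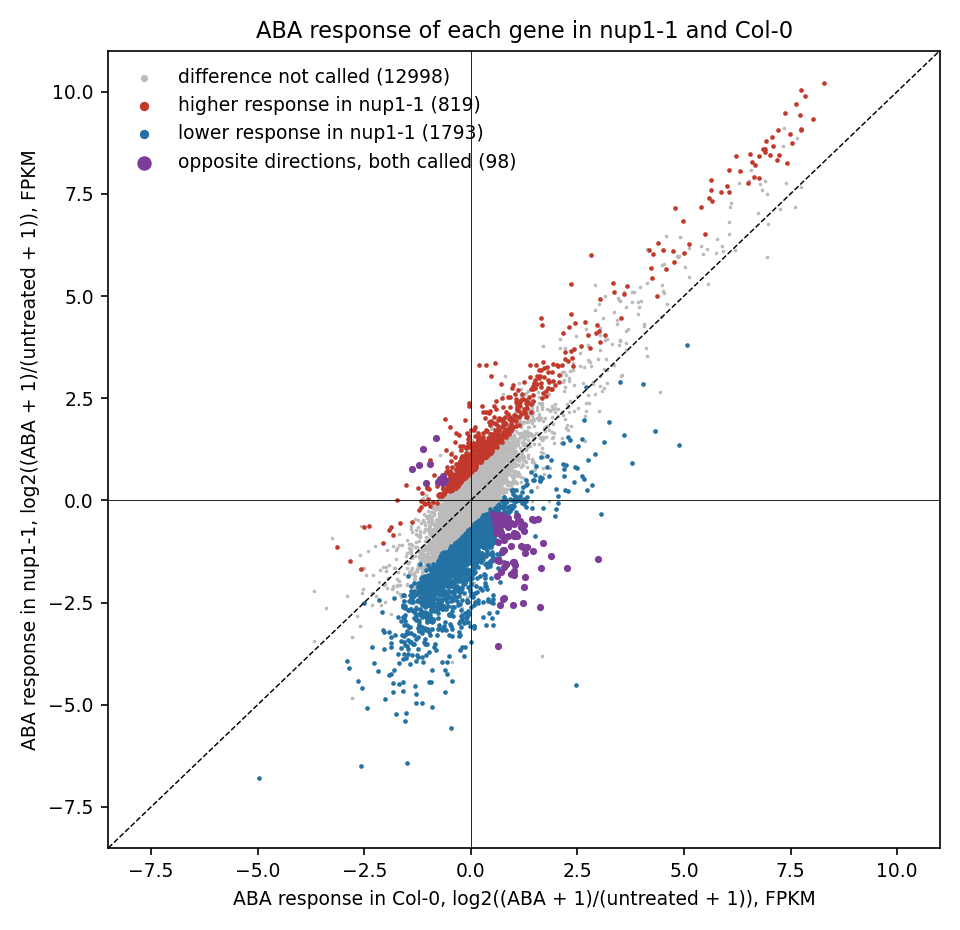
The ABA response of each tested member in nup1-1 (vertical axis) against that in Col-0 (horizontal axis), both as log2((ABA + 1)/(untreated + 1)) of FPKM, with 1 point per gene and the dashed line marking equal responses. Called genes lie above the line at the upper right and below it at the lower left, and the 98 genes that ABA moved in opposite directions lie in the upper left and lower right quadrants.

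Placed by the authors' calls in each ABA table, most of the called members were genes that ABA lowered in nup1-1. ABA lowered 1098 of them in nup1-1 with no call in Col-0 (40.5% of the called members, median difference -1.09), and lowered 537 in both genotypes, more in nup1-1 (19.8%, median difference -1.23). It raised 506 in nup1-1 with no call in Col-0 (18.7%, median difference 0.90) and 238 in both, more in nup1-1 (8.78%, median difference 1.17). Responses that were smaller in nup1-1 were few: 41 members raised and 10 lowered in both genotypes moved less in nup1-1. Of 92 called members raised in Col-0 with no call in nup1-1, the difference was higher in 7 and lower in 85, and of 42 lowered in Col-0 with no call in nup1-1, it was higher in 32 and lower in 10. In 85 members ABA lowered the level in nup1-1 and raised it in Col-0, 0.541% of the members tested, and in 13 (0.0828%) it did the opposite.

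**Figure D2:**
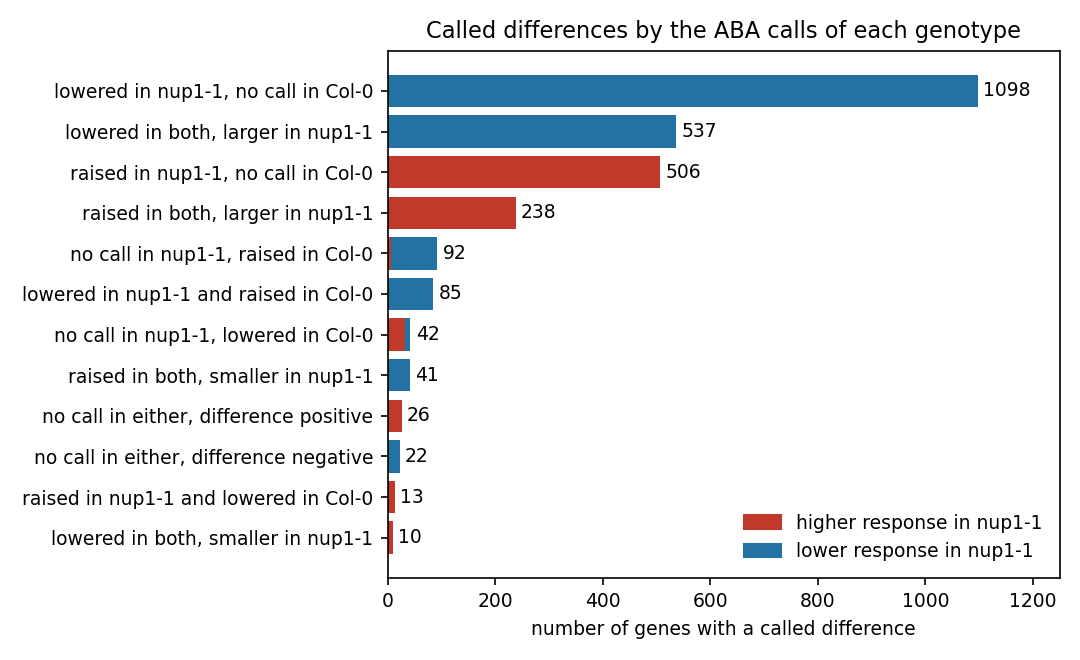
Number of called members (horizontal axis) in each class of ABA response, by the authors' calls in the nup1-1 and Col-0 tables; red marks genes with a higher and blue genes with a lower response in nup1-1, stacked within each class. The class lowered in nup1-1 without a call in Col-0 holds 1098 genes, and the class with 85 genes and the one with 13 run in opposite directions.

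A call in 1 genotype was not by itself a difference between genotypes. Of 2599 members that ABA raised in nup1-1 with no call in Col-0, 19.5% had a called difference, and of 2953 lowered in nup1-1 with no call in Col-0, 37.2%. Conversely, 79.8% of the 1269 members that ABA raised in Col-0 were raised in nup1-1 too, and 89.3% of the 1281 lowered in Col-0 were lowered in nup1-1. The share called grew with the level, and the sign moved with it: of 3134 members with a highest value of 5 to 10 FPKM, 68 were called higher and 295 lower (11.6%), whereas of 463 members at 500 FPKM or more, 108 were called higher and 82 lower (41%). The median reconstructed standard error of a response was 0.168 in nup1-1 and 0.228 in Col-0, so a response of the same size was more readily called in nup1-1.

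Gene lists for 32 processes, 858 genes in all, were set beside these background shares. In 11 lists members were called lower and none higher: among their 262 tested genes, 4 had an unadjusted p under 0.05 in the direction of a higher response and 167 in that of a lower one. The medians ran from -1.48 for genes of sugar starvation and darkness to 1.21 for seed storage and late embryogenesis genes.

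**Figure D3:**
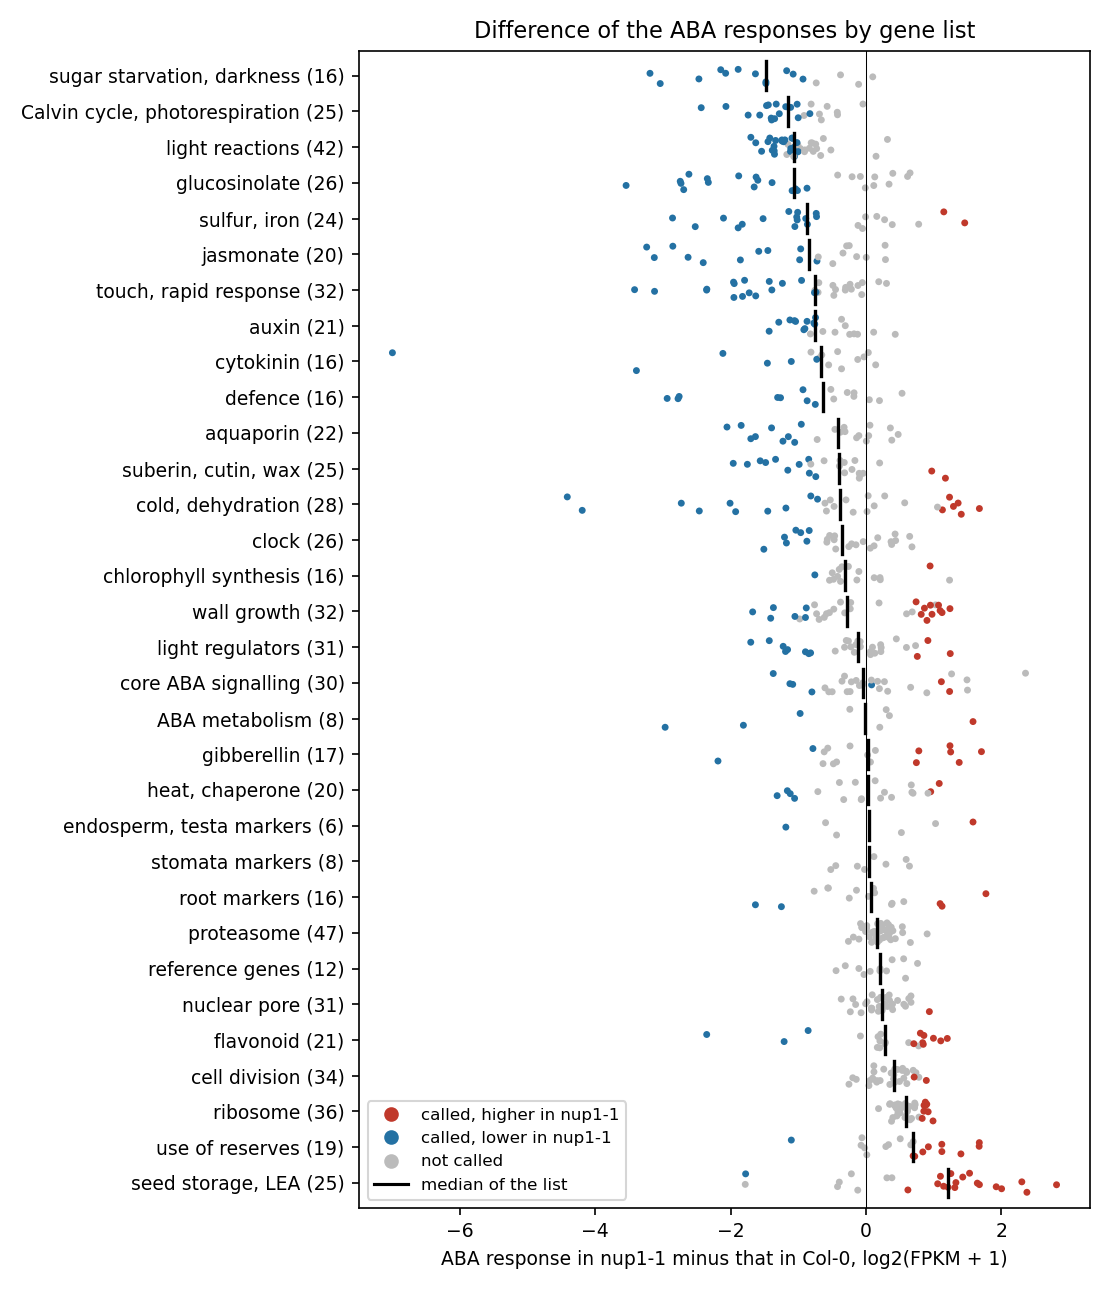
Difference of the ABA responses (nup1-1 minus Col-0, log2(FPKM + 1), horizontal axis) for each tested member of the 32 gene lists, with 1 point per gene, red and blue for called genes, grey for the rest and a black bar at the list's median; the number tested stands in brackets. Sugar starvation genes have the lowest median, -1.48, and seed storage and late embryogenesis genes the highest, 1.21.

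Among the processes that ABA raised further in nup1-1, the seed programme came first. Seed storage proteins, oleosins (the coat proteins of oil bodies) and late embryogenesis abundant (LEA) proteins had 17 of 25 tested members called higher and 1 lower, with a median response of 7.12 in nup1-1 and 6.51 in Col-0. OLEO3, an oleosin, stood at 288 FPKM on ABA and 1.02 FPKM untreated in nup1-1, against 66.3 FPKM on ABA and 1.44 FPKM untreated in Col-0, a log2 difference of 2.62 ± 0.51 (q = 9.32e-06). LEA76 stood at 2644 FPKM on ABA and 1.24 FPKM untreated in nup1-1, against 862 FPKM on ABA and 1.77 FPKM untreated in Col-0 (2.13 ± 0.47, q = 1.12e-04). Both genes were low in both untreated groups and higher on ABA in nup1-1 than on ABA in Col-0 in each ABA table's own scale. Of the 25, 19 had a positive difference on the log2(FPKM + 1) scale. The member called lower was SESA2, a 2S albumin, with 5.36 FPKM on ABA and 2.23 FPKM untreated in nup1-1, against 34.1 FPKM on ABA and 4.21 FPKM untreated in Col-0 (-1.76 ± 0.45, q = 0.00146).

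Between the genotypes the seed genes were called mostly on ABA. In the authors' genotype tables the median log2(FPKM + 1) difference of the list, nup1-1 minus Col-0, was 0.45 on ABA, with 16 members called higher and 7 lower, and -0.58 without ABA, with 3 called lower. Their called differences thus rest in part on untreated values near or below 1 FPKM. With the difference taken on the log2(FPKM + 1) scale, 8 rather than 17 members were called higher. That setting kept the standard errors of the scale without the added 1. It can therefore take calls from genes near 0, and does not show how many would be called with errors of its own scale. The summed level of the list was 13161 FPKM on ABA and 159 FPKM untreated in nup1-1, against 7461 and 213 FPKM in Col-0. The list marks embryo tissue, and its part in the other differences was not tested.

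Genes of reserve use came next. Of 19 genes of fatty acid breakdown, the glyoxylate cycle and gluconeogenesis, 9 were called higher and 1 lower. ICL, the isocitrate lyase of the glyoxylate cycle, stood at 6798 FPKM on ABA and 35.2 FPKM untreated in nup1-1, against 1739 FPKM on ABA and 28.5 FPKM untreated in Col-0 (1.67 ± 0.54, q = 0.0181). PCK1, which starts gluconeogenesis from oxaloacetate, stood at 1415 FPKM with ABA and 125 FPKM without in nup1-1, and 449.8 FPKM with ABA and 86.2 FPKM without in Col-0 (1.12 ± 0.35, q = 0.0139). In both genes the genotypes lay further apart on ABA than without it. PMDH2, one of a pair of peroxisomal malate dehydrogenase genes, ran the other way, with 156 FPKM on ABA and 672 FPKM untreated in nup1-1, against 437 FPKM on ABA and 873 FPKM untreated in Col-0 (-1.11 ± 0.31, q = 0.00367), while its partner PMDH1 was called higher (1.12 ± 0.28, q = 0.00106).

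Calls among flavonoid genes were mostly higher. Of 21 tested members, 8 were called higher and 3 lower, and the median response was 1.79 in nup1-1 and 0.94 in Col-0. Those called higher were early enzymes, their regulator MYB111 and the glycosyltransferases UGT78D1 and UGT78D2. One of the 3 called lower was also an enzyme gene, 4CL1. It stood at 26.1 FPKM on ABA and 65.6 FPKM untreated in nup1-1, against 63.3 FPKM on ABA and 67.4 FPKM untreated in Col-0. CHS, chalcone synthase, stood at 1733 FPKM on ABA and 329 FPKM untreated in nup1-1, against 913 FPKM on ABA and 373 FPKM untreated in Col-0 (1.11 ± 0.35, q = 0.0123). The genes CHI, F3H, TT7 and FLS1 had differences between 0.80 and 1.00 on the log2(FPKM + 1) scale. MYB111, which activates these early enzymes, had a difference of 1.51 ± 0.36 (q = 4.86e-04). Of the anthocyanin branch, DFR, LDOX, UF3GT, UGT75C1 and TT19 were not called: DFR stood at 109 FPKM on ABA and 2.94 FPKM untreated in nup1-1, against 84.8 FPKM on ABA and 2.53 FPKM untreated in Col-0, a difference of 0.15 ± 0.34 (q = 0.855). PAP1, a MYB factor of anthocyanin synthesis, was called lower (-1.32 ± 0.46, q = 0.0297). MYBL2, a repressor of the pathway, fell to 3.11 FPKM on ABA in nup1-1, against 71.8 FPKM untreated, and to 14.6 FPKM on ABA in Col-0, against 53.2 FPKM untreated (-2.67 ± 0.32, q = 2.00e-14).

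Cytosolic ribosomal protein genes moved by small amounts in 1 direction. All 36 tested members had a positive difference, from 0.19 to 0.99 with a median of 0.59, and 8 were called higher. ABA raised 30 of them in nup1-1 and none in Col-0 in the authors' deposited tables. RPL27AC, a protein of the large subunit, showed the largest difference of the list, with 1745 FPKM on ABA and 947 FPKM untreated in nup1-1, against 1044 FPKM on ABA and 1126 FPKM untreated in Col-0 (0.99 ± 0.32, q = 0.016). Of the 22 that reached 500 FPKM, 7 were called higher (31.8%), beside 23.3% of all tested members at that level. The median difference of all tested members at that level was also above 0, at 0.34. These calls were weak: at q under 0.01 none of the list remained. Many of these genes have near-identical paralogs, between which reads may be split.

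The largest positive differences over all members were not confined to seed genes. CXE13, annotated as a carboxylesterase, led them with 212 FPKM on ABA and 2.34 FPKM untreated in nup1-1, against 38.2 FPKM on ABA and 4.51 FPKM untreated in Col-0 (3.42 ± 0.34, q = 3.32e-21). The defensin-like genes PDF1.4 and LCR67, of a family of small cysteine-rich peptides, had differences of 3.26 ± 0.56 (q = 2.30e-07) and 2.94 ± 0.45 (q = 5.62e-09), and LCR67 reached 319.7 FPKM on ABA in nup1-1 against 31.9 FPKM on ABA in Col-0. GPT2, which carries glucose 6-phosphate into plastids, stood at 72.1 FPKM on ABA and 2.71 FPKM untreated in nup1-1, against 19.5 FPKM on ABA and 5.41 FPKM untreated in Col-0 (2.88 ± 0.31, q = 3.91e-18). CAT2, the main leaf catalase, had a different form: it stood at 816 FPKM on ABA and 156 FPKM untreated in nup1-1, against 512 FPKM on ABA and 526 FPKM untreated in Col-0 (2.43 ± 0.33, q = 1.56e-11), so that ABA raised it in nup1-1, where it was low without ABA, with no call in Col-0. SBP3, annotated as selenium-binding protein 3, and FTM1, annotated as a stearoyl-acyl-carrier-protein desaturase, completed the named genes above 2.5 on the log2(FPKM + 1) scale, together with AT3G52561. AT3G57157 and M10, a LEA protein, also lay above 2.5, but their standard errors are too small, and neither was called with standard errors from the deposited p-values.

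Among the processes that ABA lowered in both genotypes and further in nup1-1, photosynthesis had the highest levels. Of 42 nuclear genes of the light reactions, 23 were called lower (11 at q under 0.01), with a median response of -2.18 in nup1-1 and -1.11 in Col-0. The stromal enzymes followed: 17 of 25 genes of the Calvin cycle and photorespiration were called lower, with median responses of -1.81 in nup1-1 and -0.78 in Col-0. CP12-2, a small protein that holds Calvin cycle enzymes inactive in darkness, stood at 84.6 FPKM on ABA and 979.5 FPKM untreated in nup1-1, against 682 FPKM on ABA and 1448 FPKM untreated in Col-0 (-2.45 ± 0.29, q = 1.29e-14). AGT, the peroxisomal serine:glyoxylate aminotransferase of photorespiration, stood at 140.3 FPKM with ABA and 1109 FPKM without in nup1-1, and 777 FPKM with ABA and 1456 FPKM without in Col-0 (-2.08 ± 0.34, q = 4.21e-08). RCA, rubisco activase, fell to 568 FPKM on ABA in nup1-1, against 3925 FPKM untreated, and to 3497 FPKM on ABA in Col-0, against 7225 FPKM untreated (-1.74 ± 0.55, q = 0.0143). In all of these the ABA group of nup1-1 held the lowest of the 4 values. By contrast, of 16 chlorophyll synthesis genes only HEMA1 (higher) and CAO (lower) were called. The light reaction genes, which mark green tissue, summed to 30326 FPKM on ABA and 136467 FPKM untreated in nup1-1, against 86482 FPKM on ABA and 187742 FPKM untreated in Col-0, and their part in the other differences was not tested.

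Glucosinolates are the sulfur-rich defence compounds of the cabbage family, made from methionine (aliphatic) or tryptophan (indolic). Of 26 tested genes, 16 were called lower and none higher, with a median response of -1.81 in nup1-1 and -0.64 in Col-0. The called genes were those of the aliphatic branch and, for breakdown, the myrosinase gene TGG2 and ESP, the epithiospecifier gene. CYP79F1, which makes aliphatic aldoximes, stood at 0.279 FPKM on ABA and 21.8 FPKM untreated in nup1-1, against 12.3 FPKM on ABA and 19.4 FPKM untreated in Col-0 (-5.64 ± 0.51, q = 1.11e-25). The chain elongation genes BCAT4 and MAM1 stood at 3.53 and 4.55 FPKM on ABA in nup1-1, against 29.2 and 32.8 FPKM on ABA in Col-0, while their untreated values lay between 58.4 and 75.0 FPKM in both genotypes. MYB28 and MYB29, which activate this branch, were called lower as well (-1.47 ± 0.28, q = 4.64e-06; -3.90 ± 0.56, q = 2.99e-10). The indolic genes CYP79B2, CYP79B3, CYP83B1, SUR1 and MYB34 had differences between -0.42 and 0.65 on the log2(FPKM + 1) scale, and none of them was called.

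Among cytokinin genes 6 of 16 tested were called lower and none higher. They include KMD3, one of the KISS ME DEADLY F-box genes whose proteins target type-B response regulators of cytokinin for breakdown, which stood at 1.57 FPKM on ABA and 58.1 FPKM untreated in nup1-1, against 19.5 FPKM on ABA and 2.71 FPKM untreated in Col-0. Its difference of -6.99 on the log2(FPKM + 1) scale was the largest in size among called members, and it was called with either kind of reconstructed standard error, of which the first is too small to be quoted. In the authors' deposited tables KMD3 was called for ABA in nup1-1 (q = 2.08e-04) but not in Col-0 (q = 0.34), and between genotypes on ABA (q = 5.15e-04) but not without it (q = 0.314). Its relatives KMD1, with 16.3 FPKM on ABA and 267 FPKM untreated in nup1-1, against 74.9 FPKM on ABA and 111 FPKM untreated in Col-0 (-3.46 ± 0.29, q = 1.04e-30), and KMD4 (-2.14 ± 0.32, q = 1.32e-09) were called lower too. KMD4 fell in both genotypes. The others called were the type-A response regulators ARR5, ARR6 and ARR9.

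Of the clock genes ABA lowered 17 and raised 3 in nup1-1, and lowered 10 and raised 1 in Col-0, in the authors' deposited tables. The list had a median response of -1.07 in nup1-1 and -0.41 in Col-0, and 7 of 26 were called lower. RVE7, a MYB factor related to CCA1, showed the largest difference on the log2(FPKM + 1) scale (-1.51; -1.81 ± 0.30 without the added 1, q = 1.04e-07), and RVE1, of the same family, the largest without the added 1 (-1.89 ± 0.35, q = 1.59e-06). PRR5 and TOC1, evening repressors, stood at 12.6 and 37.7 FPKM on ABA in nup1-1, against 32.6 and 61.5 FPKM on ABA in Col-0. The hour of harvest was not stated in the labels.

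In a further set of processes ABA lowered genes in nup1-1 while the median response in Col-0 was close to 0 or above it. Genes induced by sugar starvation and darkness had 12 of 16 members called lower, with a median response of -1.25 in nup1-1 and 0.24 in Col-0. BXL1, a beta-xylosidase, stood at 20.6 FPKM on ABA and 188 FPKM untreated in nup1-1, against 112 FPKM on ABA and 107 FPKM untreated in Col-0 (-3.25 ± 0.32, q = 2.90e-21). TPS8, of the trehalose phosphate synthase family, stood at 9.53 FPKM with ABA and 59.4 FPKM without in nup1-1, and 25.1 FPKM with ABA and 17.3 FPKM without in Col-0 (-3.18 ± 0.28, q = 2.37e-27). DIN10, a raffinose synthase family gene induced in darkness, stood at 102 FPKM on ABA and 474 FPKM untreated in nup1-1, against 223 FPKM on ABA and 185 FPKM untreated in Col-0 (-2.48 ± 0.35, q = 1.2e-10). In these 3 genes the untreated nup1-1 group held the highest of the 4 values and the ABA nup1-1 group the lowest. The 2 genotype tables gave the list a median difference, nup1-1 minus Col-0, of -0.99 on ABA, with 2 called higher and 10 lower, and 0.38 without ABA, with 5 called higher and 1 lower; these tables share libraries with the ABA tables. Among genes outside the list, AT3G15450, annotated as aluminum induced, fell to 15.7 FPKM on ABA in nup1-1, against 789 FPKM untreated, and stood at 189.7 FPKM on ABA and 262 FPKM untreated in Col-0 (-5.18 ± 0.46, q = 3.24e-26). The BTB-TAZ gene BT1 was likewise lowered in nup1-1 with no call in Col-0 (-4.07 ± 0.31, q = 9.42e-35). BT5, of the same family, and AT2G20670, of the DUF506 family, were lowered in both genotypes, more in nup1-1 (-4.88 ± 0.45, q = 5.59e-25; -4.18 ± 0.29, q = 1.98e-43).

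Touch and other rapid stress genes had calls that were all lower. Of 32 tested members, 17 were called lower, and the median response was -1.09 in nup1-1 and 0.03 in Col-0. TCH3, a calmodulin-like protein induced by touch, stood at 18.6 FPKM on ABA and 162 FPKM untreated in nup1-1, against 47.9 FPKM on ABA and 37.1 FPKM untreated in Col-0 (-3.49 ± 0.31, q = 1.75e-26). ERF2, an ethylene response factor, stood at 6.36 FPKM with ABA and 52.0 FPKM without in nup1-1, and 21.4 FPKM with ABA and 17.5 FPKM without in Col-0 (-3.32 ± 0.31, q = 2.82e-24). MPK3, a MAP kinase of stress and immune signalling, showed 15.2 FPKM on ABA and 80.6 FPKM untreated in nup1-1, against 29.6 FPKM on ABA and 29.2 FPKM untreated in Col-0 (-2.43 ± 0.28, q = 2.09e-16). All 3 were highest in untreated nup1-1, and without ABA 9 members of the list were called higher in nup1-1 than in Col-0 and 1 lower in the authors' deposited table. Such genes react to handling within minutes, and the labels do not state how the seedlings were harvested.

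Calls were mostly or all lower among auxin genes, aquaporin genes, genes of suberin, cutin and wax, and defence genes. Among 21 auxin genes 11 were called lower, with a median difference of -0.76; they include the early auxin-induced repressor genes IAA2 (-1.32 ± 0.27, q = 2.76e-05) and IAA19 (-1.80 ± 0.40, q = 1.39e-04) and the efflux carriers PIN3, PIN4 and PIN7, whose differences lay between -0.92 and -0.77 on the log2(FPKM + 1) scale. Among 22 aquaporin genes 9 were called lower: PIP2;6, a plasma membrane water channel, stood at 59.6 FPKM on ABA and 378 FPKM untreated in nup1-1, against 185 FPKM on ABA and 279 FPKM untreated in Col-0 (-2.07 ± 0.28, q = 2.63e-11). Among 25 genes of suberin, cutin and wax, 2 were called higher and 10 lower. The suberin gene CYP86A1, a fatty acid hydroxylase of the root, stood at 4.11 FPKM on ABA and 24.9 FPKM untreated in nup1-1, against 15 FPKM on ABA and 19.9 FPKM untreated in Col-0 (-2.20 ± 0.29, q = 2.05e-12), whereas CER1, which makes wax alkanes, was called higher (0.96 ± 0.28, q = 0.00627). Among 16 defence genes 8 were called lower, with a median difference of -0.63.

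**Figure D4:**
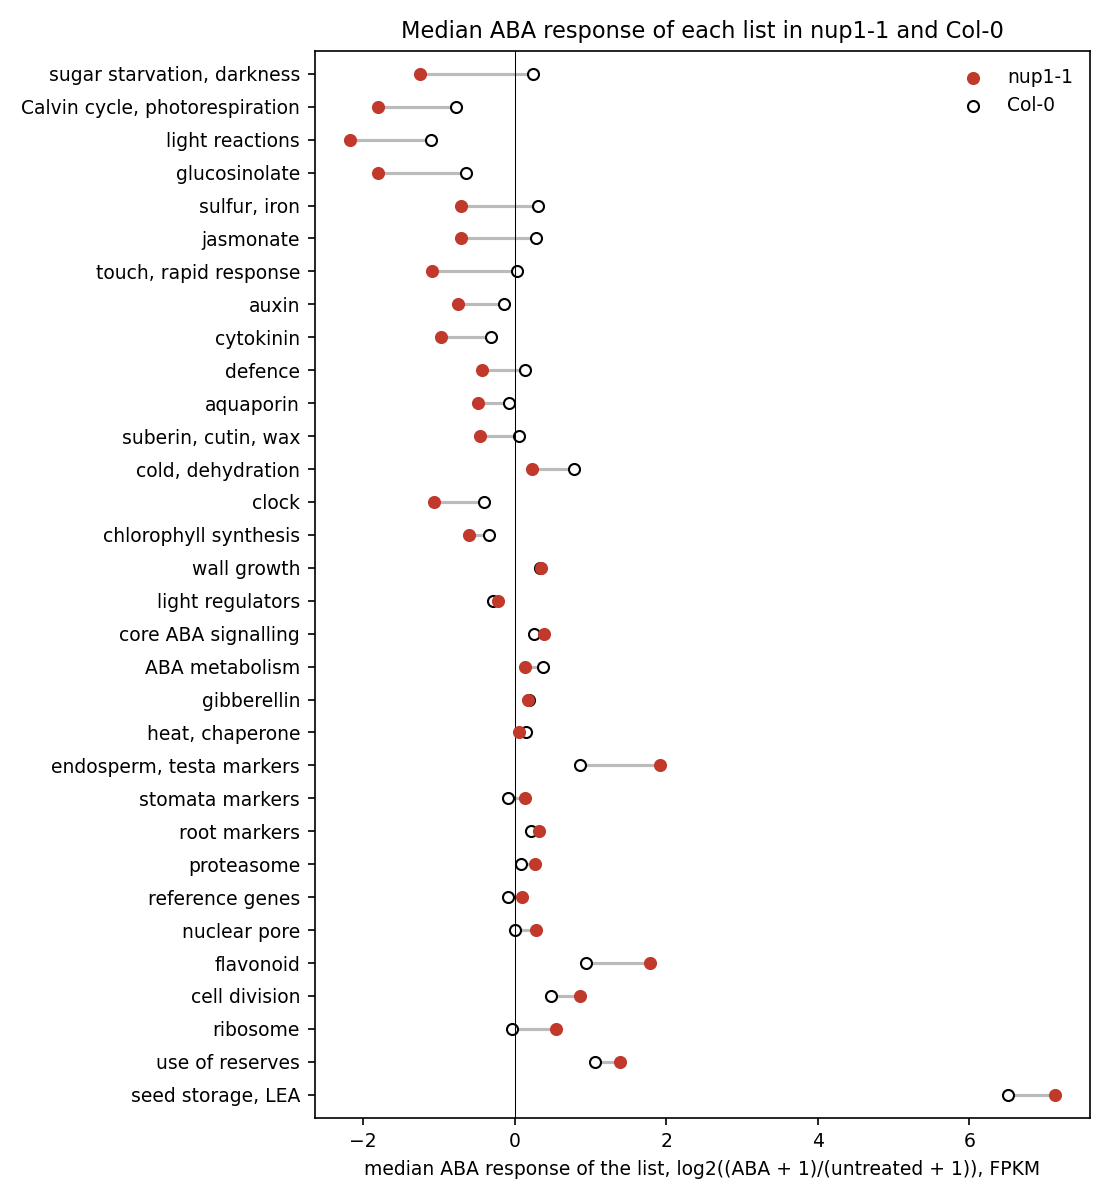
Median ABA response of each gene list, as log2((ABA + 1)/(untreated + 1)) of FPKM (horizontal axis), in nup1-1 (red points) and in Col-0 (open points). The sugar starvation list has medians of -1.25 in nup1-1 and 0.24 in Col-0, on different sides of 0, and the light reaction list has -2.18 in nup1-1 and -1.11 in Col-0, both below it.

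Of the 85 genes that ABA lowered in nup1-1 and raised in Col-0, the cold and dehydration list held 2, COR15A and COR15B. On the log2(FPKM + 1) scale COR15A had the largest difference of the 85, -4.41, and without the added 1 AT3G58550 and FACT, given further on, had larger ones. COR15A, whose product protects chloroplast membranes during freezing, stood at 63.5 FPKM on ABA and 174 FPKM untreated in nup1-1, against 181 FPKM on ABA and 22.2 FPKM untreated in Col-0 (-4.48 ± 0.34, q = 1.08e-36). Its tandem neighbour COR15B stood at 17.2 FPKM on ABA and 213 FPKM untreated in nup1-1, against 81.7 FPKM on ABA and 52.1 FPKM untreated in Col-0 (-4.27 ± 0.33, q = 9.42e-35). In both, the untreated nup1-1 group was far above the untreated Col-0 group and the ABA nup1-1 group below the ABA Col-0 group. Any reads shared between these tandem neighbours could be split between them. Over the whole list of 28 tested members, 6 were called higher and 10 lower, so the list did not move as a block: KIN2, a small cold-induced protein, was called lower (-1.93 ± 0.34, q = 7.27e-07), and RAB18, a dehydrin, was called higher (1.15 ± 0.36, q = 0.0117).

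The 250 bases upstream of the start of the authors' gene rows are printed for the COR15 pair and AT1G52000 as genes moved in opposite directions, and for OLEO3 as a gene raised in both genotypes and more in nup1-1, all chosen after their values were seen. Row starts lay within 50 bases of the annotated gene start in 39.6% of the members with an annotated gene, so a window need not end at the annotated start. The sequences are from RefSeq's TAIR10.1, 5′ to 3′ on the gene's strand, at chr2:17712331-17712580 (minus strand) for COR15A, chr2:17709946-17710195 (minus strand) for COR15B, chr1:19336116-19336365 (minus strand) for AT1G52000 and chr5:20819851-20820100 (plus strand) for OLEO3. Capitals mark ACGTG (the ABRE core), CACGTG (the G-box, which holds ACGTG on both strands), CCGAC (the DRE core, bound by CBF and DREB factors), AAAATATCT (the evening element) and TTGACC or TTGACT (the W-box, bound by WRKY factors), each searched on both strands.
COR15A: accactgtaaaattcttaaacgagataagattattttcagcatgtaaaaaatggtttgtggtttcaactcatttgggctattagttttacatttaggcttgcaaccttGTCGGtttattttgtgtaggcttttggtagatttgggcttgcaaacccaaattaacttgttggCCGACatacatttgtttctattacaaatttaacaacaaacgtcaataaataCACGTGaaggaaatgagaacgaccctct
COR15B: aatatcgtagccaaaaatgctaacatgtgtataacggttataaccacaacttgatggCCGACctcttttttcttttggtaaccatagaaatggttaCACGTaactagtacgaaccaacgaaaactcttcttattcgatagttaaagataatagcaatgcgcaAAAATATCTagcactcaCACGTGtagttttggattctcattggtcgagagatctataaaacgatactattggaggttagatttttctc
AT1G52000: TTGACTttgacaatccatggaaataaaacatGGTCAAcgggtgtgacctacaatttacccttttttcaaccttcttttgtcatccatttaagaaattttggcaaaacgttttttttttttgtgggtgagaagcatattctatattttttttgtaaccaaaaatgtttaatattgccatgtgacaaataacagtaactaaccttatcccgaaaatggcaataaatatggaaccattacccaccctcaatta
OLEO3: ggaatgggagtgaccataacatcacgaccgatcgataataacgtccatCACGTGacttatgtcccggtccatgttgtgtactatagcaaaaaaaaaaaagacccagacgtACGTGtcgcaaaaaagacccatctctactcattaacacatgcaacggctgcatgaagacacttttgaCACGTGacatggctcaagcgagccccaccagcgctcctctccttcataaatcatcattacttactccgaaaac
The COR15A window holds 2 DRE cores and 1 G-box, that of COR15B 1 DRE core, 1 evening element, 1 G-box and a further ABRE core, that of AT1G52000 2 W-boxes, and that of OLEO3 2 G-boxes and a further ABRE core. OLEO2 and VSP2 had none of these letters in the same window. Over 15406 members with a window, 27.7% held ACGTG, 10% CACGTG, 15.2% CCGAC, 28.4% a W-box and 2.54% the evening element. ACGTG was held by 30.8% of the windows of all genes called higher, 30.2% of those called lower and 27.1% of those not called. For CACGTG these shares were 14.4%, 10.7% and 9.58%. Among the 234 windows of genes raised in both genotypes and more in nup1-1, 47% held ACGTG and 28.2% CACGTG. Genes raised in both genotypes without a called difference were not counted beside them, so these shares cannot be tied to the difference. Among the 85 of genes lowered in nup1-1 and raised in Col-0, 41.2% held a W-box, 30.6% ACGTG and 14.1% CCGAC. Among the 531 of genes lowered in both and more in nup1-1, 9.98% held CCGAC. These shares are descriptions and were not tested.

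Jasmonate genes gave 3 members with opposite responses and 11 of 20 called lower, with a median response of -0.71 in nup1-1 and 0.29 in Col-0. Jasmonate is the wound hormone, made from plastid lipids. LOX2, the plastid lipoxygenase that begins its synthesis in leaves, stood at 44.8 FPKM on ABA and 166 FPKM untreated in nup1-1, against 113 FPKM on ABA and 46.5 FPKM untreated in Col-0 (-3.17 ± 0.30, q = 1.65e-23). AOC2, an allene oxide cyclase of the next steps, stood at 57.9 FPKM on ABA and 320.1 FPKM untreated in nup1-1, against 220.0 FPKM on ABA and 194 FPKM untreated in Col-0 (-2.65 ± 0.28, q = 2.69e-19), with no call in Col-0. The output genes VSP2 and VSP1, vegetative storage proteins, followed LOX2: VSP2 stood at 12.4 FPKM on ABA and 33.2 FPKM untreated in nup1-1, against 21.2 FPKM on ABA and 4.99 FPKM untreated in Col-0 (-3.50 ± 0.31, q = 4.94e-26). The receptor gene COI1 and the factor gene MYC2 had differences of -0.30 ± 0.46 (q = 0.764) and -0.36 ± 0.27 (q = 0.436) and were not called.

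Most calls among nutrient genes were lower. Of 24 genes of sulfur and iron supply, 2 were called higher and 15 lower. BHLH100, BHLH101 and BHLH38 belong to the Ib group of bHLH factors, which switch on iron uptake, and ABA lowered all 3 in nup1-1 and raised them in Col-0. BHLH101 is not one of the 24 listed genes. BHLH39, of the same group, was lowered in nup1-1 with no call in Col-0 in the authors' deposited tables (q = 2.08e-04 and 0.119). BHLH100 stood at 46.4 FPKM on ABA and 135 FPKM untreated in nup1-1, against 205 FPKM on ABA and 102 FPKM untreated in Col-0 (-2.55 ± 0.28, q = 2.21e-17), and BHLH101 at 9.09 FPKM with ABA and 58.9 FPKM without in nup1-1, and 44.7 FPKM with ABA and 27.5 FPKM without in Col-0 (-3.40 ± 0.31, q = 2.68e-25). IRT1, the root iron transporter, fell in both genotypes, to 1.84 FPKM on ABA in nup1-1, against 72.3 FPKM untreated, and to 28.8 FPKM on ABA in Col-0, against 105 FPKM untreated (-3.43 ± 0.36, q = 1.25e-18). The ferritin genes FER2 and FER4, whose proteins store iron, were those called higher (1.51 ± 0.36, q = 4.61e-04; 1.2 ± 0.29, q = 4.61e-04). LSU1 and LSU3, induced by sulfur shortage, stood at 79.9 and 79.6 FPKM on ABA and 147 and 83.2 FPKM untreated in nup1-1, against 54.2 and 43.2 FPKM on ABA and 26.3 and 9.73 FPKM untreated in Col-0, and both were called lower (-1.92 ± 0.33, q = 3.12e-07; -2.21 ± 0.35, q = 2.22e-08). ABA lowered LSU1 in nup1-1 and raised it in Col-0. It raised LSU3 in Col-0, with no call in nup1-1.

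Of the 85 genes lowered in nup1-1 and raised in Col-0, 46 crossed between media. In the authors' deposited genotype tables, which share libraries with the ABA tables, 76 of the 85 were called lower in nup1-1 on ABA and none higher. Without ABA 55 were called higher in nup1-1 and 1, CSD2, lower. The 46 were called in both media with different signs. Of all tested genes 23.3% were lower and 15.4% higher on ABA, and 2.68% were higher and 3.92% lower without it. The difference is in effect the genotype difference on ABA minus that without. Genes chosen by opposite responses thus tend to cross by construction. Other members of the 85 were AT3G58550 and AT2G18370, annotated as lipid-transfer proteins, with differences of -4.66 ± 0.43 and -3.97 ± 0.36, and FACT, which makes caffeates of fatty alcohols for root waxes, with -4.58 ± 0.42. Their q-values were 1.76e-24, 1.74e-25 and 9.36e-25. Most of the opposite responses were of modest size: 18 of the 85 moved by at least 1 on the log2(FPKM + 1) scale in both tables.

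The 13 genes raised in nup1-1 and lowered in Col-0 include 6 whose RefSeq product is an uncharacterized protein. AT3G06145, annotated as a RING zinc finger protein, stood at 22.4 FPKM on ABA and 8.75 FPKM untreated in nup1-1, against 10.8 FPKM on ABA and 24.8 FPKM untreated in Col-0 (2.56 ± 0.33, q = 1.46e-12). FSD1, an iron superoxide dismutase, stood at 918 FPKM on ABA and 543 FPKM untreated in nup1-1, against 326 FPKM on ABA and 853 FPKM untreated in Col-0 (2.15 ± 0.33, q = 2.41e-09). SWEET1, a glucose carrier of the plasma membrane, stood at 26.1 FPKM with ABA and 19.2 FPKM without in nup1-1, and 16.6 FPKM with ABA and 35.3 FPKM without in Col-0 (1.53 ± 0.29, q = 4.61e-06). In these 3 genes the untreated Col-0 group lay above the untreated nup1-1 group and the ABA Col-0 group below the ABA nup1-1 group. Of the 13, the authors' deposited genotype tables called 8 higher in nup1-1 on ABA and 1 lower, and without ABA 9 lower and none higher. These counts too follow in part from how the genes were chosen. A single gene of the 13 moved by at least 1 on the log2(FPKM + 1) scale in both tables.

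**Figure D5:**
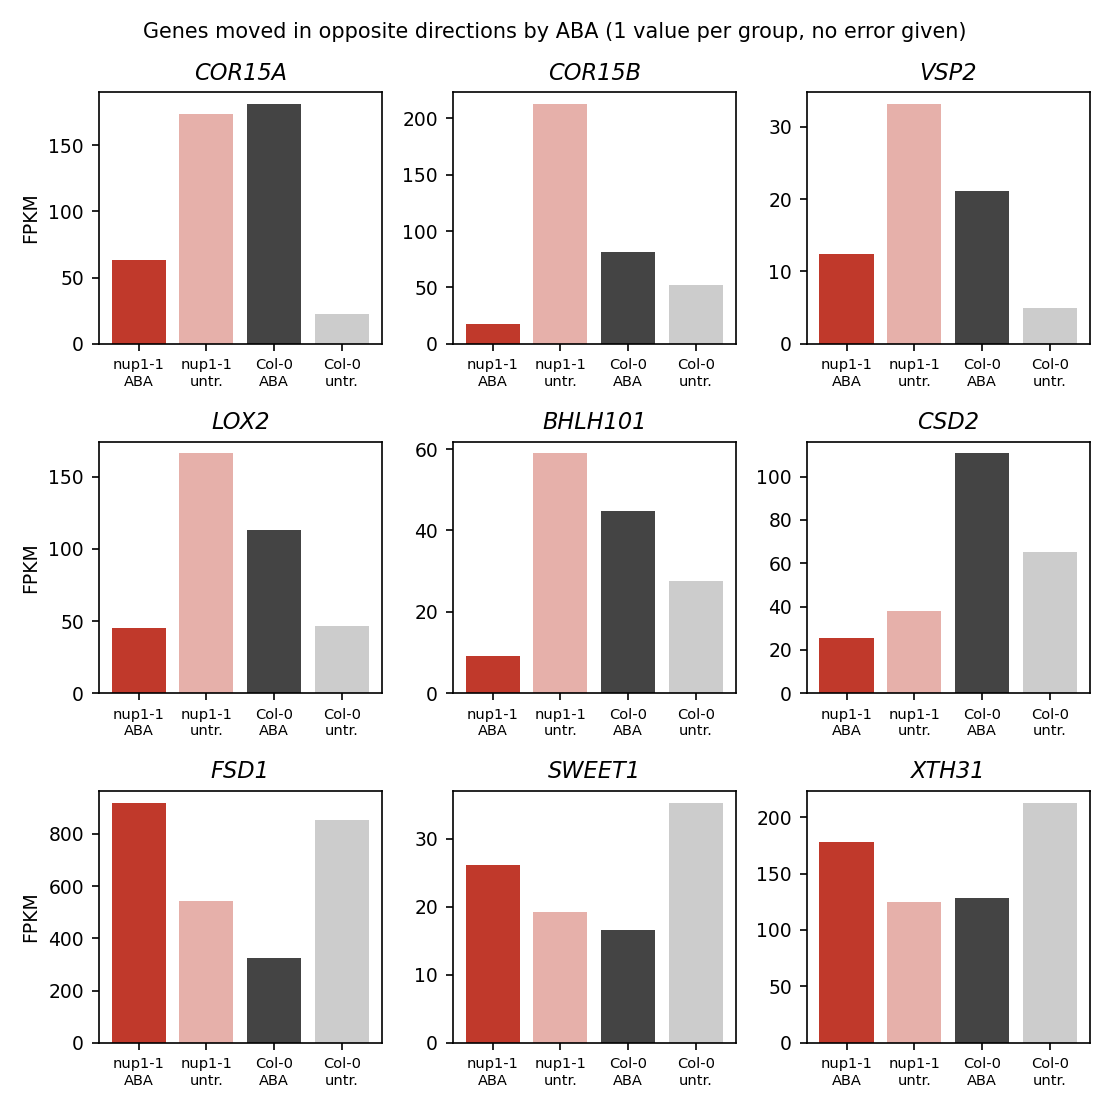
Authors' group values in FPKM (vertical axes, starting at 0, with 1 value per group and no error) of 9 genes that ABA moved in opposite directions, in nup1-1 on ABA, nup1-1 untreated, Col-0 on ABA and Col-0 untreated. COR15A, COR15B, VSP2, LOX2, BHLH101 and CSD2 are lower on ABA than without it in nup1-1 and higher in Col-0, and FSD1, SWEET1 and XTH31 run the other way.

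Some lists split within themselves. Of 17 gibberellin genes, 6 were called higher and 2 lower. The DELLA repressor genes RGL1, RGL2 and RGL3, which hold back germination, were among those higher: RGL2 stood at 33.8 FPKM on ABA and 2.32 FPKM untreated in nup1-1, against 11.9 FPKM on ABA and 3.03 FPKM untreated in Col-0 (1.88 ± 0.31, q = 6.85e-08). GASA6, a gibberellin-induced peptide gene, was lower, with 21.8 FPKM on ABA and 308 FPKM untreated in nup1-1, against 122 FPKM on ABA and 365 FPKM untreated in Col-0 (-2.24 ± 0.29, q = 8.15e-13). Of 32 expansin and xyloglucan endotransglucosylase genes 10 were called higher and 6 lower; EXPA7 and EXPA18, expansins of root hairs, were both higher (1.15 ± 0.28, q = 6.72e-04; 1.13 ± 0.29, q = 0.00113). Of 20 heat shock factor and chaperone genes 2 were called higher and 4 lower, with HSFA6B among those higher and HSFA3 and HSFA4A among those lower. Of 31 light regulators 3 were called higher and 8 lower. Those lower included PIF4, PIF5 and PIF7, phytochrome-interacting factors of growth, with PIF7 at 1.36 FPKM on ABA and 15.1 FPKM untreated in nup1-1, against 5.30 FPKM on ABA and 12.2 FPKM untreated in Col-0 (-2.27 ± 0.36, q = 1.13e-08).

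The core signalling genes of the ABA pathway stood near the background. Of 30 core signalling genes 2 were called higher and 5 lower, 23.3%, with a median difference of -0.05. The receptor gene PYL2 was among those called higher, and PYL5, PYL7 and PYL8 were among those called lower. One called gene, the phosphatase gene HAI2, had a difference of -1.43 ± 0.53 on the log2 scale and 0.08 on the log2(FPKM + 1) scale, the sole called member whose sign differed between the scales. Of 8 genes of ABA metabolism 1 was called higher and 3 lower, 50%, beside 17.3% of all tested members. BGLU18, which frees ABA from its glucose ester, was called lower with 4.45 FPKM on ABA and 29.7 FPKM untreated in nup1-1, against 14.8 FPKM on ABA and 10.4 FPKM untreated in Col-0 (-3.25 ± 0.31, q = 7.16e-23). The ABA 8′-hydroxylase genes, whose enzymes break ABA down, went in different directions: CYP707A2 stood at 19.5 FPKM on ABA and 2.16 FPKM untreated in nup1-1, against 18.5 FPKM on ABA and 8.01 FPKM untreated in Col-0 (1.96 ± 0.31, q = 7.18e-09), and CYP707A3 was called lower (-1.09 ± 0.30, q = 0.00329). ABI5 itself stood at 73.4 FPKM on ABA and 2.72 FPKM untreated in nup1-1, against 32.8 FPKM on ABA and 2.15 FPKM untreated in Col-0, a difference that was not called (0.82 ± 0.33, q = 0.0675). In the authors' deposited genotype tables it was higher in nup1-1 on ABA (q = 2.72e-04) and was not called without it (q = 0.895). The difference of NUP1 was not called either (-0.41 ± 0.27, q = 0.356).

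The test of the difference called few or no genes of the machinery named by the study. Of 31 nuclear pore genes the Wald test called 1, NUP88, higher in nup1-1, with 16.0 FPKM on ABA and 7.27 FPKM untreated in nup1-1, against 7.57 FPKM on ABA and 6.99 FPKM untreated in Col-0 (1.02 ± 0.27, q = 0.00223), and 5 had an unadjusted p under 0.05. In the authors' deposited tables ABA raised 11 of the 31 in nup1-1 and none in Col-0, and 21 were higher in nup1-1 than in Col-0 on ABA and 2 without it. Of 47 proteasome genes none was called, with either kind of reconstructed standard error, and 4 had an unadjusted p under 0.05, all in the direction of a higher response; the differences ran from -0.26 to 0.90. Of 34 cell division genes 2 were called higher, KNOLLE and CDKB1;1, with a list median of 0.41. None of 12 reference genes was called and 1 had an unadjusted p under 0.05; their median difference was 0.21, in a range of -0.44 to 0.76. Differences of about this size are therefore seen in genes chosen for their even expression.

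The marker lists of root, stomata and seed coat had calls in both directions or none. Of 16 root genes 3 were called higher and 2 lower, with summed levels of 498 FPKM on ABA and 486 FPKM untreated in nup1-1, against 434 and 414 FPKM in Col-0. WOX5, the homeobox gene of the root's quiescent centre, was one of those higher (2.12 ± 0.46, q = 7.96e-05). None of 8 stomatal genes was called by the Wald test, and 2 had an unadjusted p under 0.05. Among 6 genes of endosperm and testa, CYP707A2 was called higher and MUM2 lower, and the list summed to 131 FPKM on ABA and 89.8 FPKM untreated in nup1-1, against 112 and 71.0 FPKM in Col-0.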

How the data were processed

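Messenger RNA of 12 seedling samples in 4 groups was sequenced. Per the submitters' processing notes, reads went through FastQC and Trimmomatic, then TopHat with the build TAIR10; versions, and the name of the program behind the tables, were not given in the labels or headers. The authors deposited 4 gene-level comparison tables with 1 FPKM value per group, a test statistic (a score), p-values and q-values, per the file headers. No value per library was used, so the depth and spread of single samples are unknown. Rows of the plastid (130) and mitochondrial (141) genomes hold only 0 and were left out.

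The responses were recomputed from the deposited FPKM values with a pseudocount of 1 FPKM. For the Wald test, each deposited statistic was multiplied by a factor fitted per table (1.74) to bring its normal p to the deposited one, and the log2 fold change divided by this deviate gave the standard error. The difference of the responses of the 2 ABA tables, which share no library, was tested 2-sided, with Benjamini-Hochberg adjustment over 19487 genes at 1 FPKM or more. This test is approximate. For 216 members the standard error is over 1.5 times too small by the deposited p in at least 1 ABA table. For these neither a standard error nor q is printed. A response whose deposited p was the smallest of its table could not be checked in this way. The script was tested on simulated data.

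Symbols are those of the TAIR10.1 annotation in RefSeq, matched to 27408 row names. The file rows held the whole annotated coding sequence for 97.1% of the members that have one, and row starts equalled the annotated gene start in 16.3%; no row ran past a TAIR10.1 chromosome end. Upstream windows start at the row starts of the authors' tables.

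Genes named are, among called members, the 15 largest differences in each direction, the 10 largest among each kind of opposite response and up to 6 per list, with NUP1 and ABI5; other list members are named to describe a list, after their values were seen. The members and lists were chosen with earlier results of these data known. Settings varied were the floors, the pseudocount, the standard errors, centring, the genotype tables, the q threshold and the size of change. Python 3.11.15, numpy 2.4.6, pandas 2.3.3, scipy 1.17.1 and matplotlib 3.10.9 were used.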

Additional observations from a re-analysis of the deposited data

Results flagged for a closer look

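The difference of the ABA responses between nup1-1 and Col-0 passed its own test in 2710 members, which is what singled these genes out. In 85 members ABA lowered the level in nup1-1 and raised it in Col-0, and in 13 it raised the level in nup1-1 and lowered it in Col-0; each of these genes was called in both ABA tables and in the test of the difference.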

How the results depend on the processing

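With a floor of 5 FPKM in place of 1, with no floor, with standard errors from the deposited p-values, with centred tables, with the difference taken from the genotype tables, with the test on the log2(FPKM + 1) scale and without genes of doubtful standard error, between 2146 and 2755 members were called, against 2710. The genotype tables hold the same 4 groups of libraries and moved the differences by a median of -0.008 (SD 0.018 across genes). That setting is therefore no independent check. Where a deposited p was the smallest of its table, the setting with p-based standard errors kept the main standard error. For such a response it is no check. At q under 0.01, 1778 were called, 394 of them higher in nup1-1. With a difference of at least 1 as a further condition, 1555 were called, 377 higher and 1178 lower. A change of at least 1 on the log2(FPKM + 1) scale in both ABA tables was set as another condition. With it, 18 genes were lowered in nup1-1 and raised in Col-0, and 1 was raised in nup1-1 and lowered in Col-0. Neither the counts nor the 187 genes named by rule changed sign under these settings; HAI2, named in addition, was -1.43 on the log2 scale and 0.08 on the log2(FPKM + 1) scale. Of the 187, 23 lost their call at q under 0.01, 22 under the size condition, 4 on the log2(FPKM + 1) scale, 3 with p-based standard errors, 1 with centred tables and 1 with the genotype tables. The tests on the log2(FPKM + 1) scale and without doubtful genes were added after seeing the data. The first kept the standard errors of the scale without the added 1, so it can take calls from genes near 0. No paired analysis was possible because the tables hold 1 value per group, and for the same reason no sample could be left out. The depth of single libraries is unknown.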

Other observations

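Superoxide dismutases, enzymes that remove superoxide with different metals, did not move alike; this family was looked up after the opposite genes were seen. The copper/zinc genes CSD1 and CSD2 and CCS, the chaperone that loads their copper, were called lower: CSD1 stood at 72.5 FPKM on ABA and 103 FPKM untreated in nup1-1, against 183 FPKM on ABA and 84.5 FPKM untreated in Col-0 (-1.63 ± 0.33, q = 2.43e-05), CSD2 at 25.3 FPKM with ABA and 38.1 FPKM without in nup1-1, and 111 FPKM with ABA and 65.1 FPKM without in Col-0 (-1.36 ± 0.32, q = 3.53e-04), and CCS at 13.5 FPKM on ABA and 25.3 FPKM untreated in nup1-1, against 37.6 FPKM on ABA and 27.1 FPKM untreated in Col-0 (-1.38 ± 0.29, q = 4.84e-05). The iron genes FSD1 and FSD3 were called higher, FSD3 with 120.4 FPKM on ABA and 48.2 FPKM untreated in nup1-1, against 82.2 FPKM on ABA and 63.6 FPKM untreated in Col-0 (0.95 ± 0.27, q = 0.0044). FSD2 (0.34 ± 0.26, q = 0.46) and the manganese gene MSD1 (0.60 ± 0.28, q = 0.148) were not called.

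Of 90 RefSeq product names shared by at least 15 tested members, the lowest median difference was that of the TIR-NBS-LRR disease resistance family, intracellular immune receptors, with -1.37: 11 of its 15 members were called lower and none higher, and its median response was -1.47 in nup1-1 and -0.32 in Col-0. The SAUR-like auxin-responsive family had 1 of 45 members called higher and 17 lower, and the superfamily of bifunctional inhibitors, lipid-transfer proteins and 2S albumins 3 of 50 higher and 24 lower. The dirigent-like family had 8 of 17 called lower. At the other end, small nuclear ribonucleoproteins, parts of the splicing machinery, had a median difference of 0.45 over 22 members, with 2 called higher, and OB-fold nucleic acid-binding proteins one of 0.45 over 24 members, with 1 called higher; 5.3% of all tested members were called higher. These families were ranked by the same values and were not tested.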
